A study of Homo sapiens with 4 samples.

Results

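MHC class I presentation was followed through 9 genes: the heavy chains HLA-B, HLA-C, HLA-E and HLA-F, the light chain B2M, the peptide transporter subunits TAP1 and TAP2, the loading factor TAPBP and the transactivator NLRC5. Members were the rows of the table of 28412 genes that carried these gene names, with the row of the highest mean taken for each name. 7 of the 9 genes were found in this way, and HLA-B and HLA-C were not analysed here. RNA-seq had been carried out on 4 libraries of a human leukemia line named NB4 in the labels. The 2 sh-NC libraries carry the control genotype and are described in the labels as untreated, and the 2 sh-LDB1 libraries came from cells in which LDB1, a co-regulator that joins transcription factors into complexes, had been knocked down. Per the study's methods, shRNA was delivered with the lentiviral vector Plko.1 and infected cells were selected with puromycin. All 4 libraries share the labelled line, and sh-NC is the study's name for its control vector. The labels do not state which shRNA was sequenced or whether the replicates were separate cultures, so p-values below measure only the spread between these libraries, which may be technical.

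Class I molecules show peptides from inside the cell to CD8+ T cells. Proteasomes cut cytosolic proteins into peptides, the transporter made of TAP1 and TAP2 carries these into the endoplasmic reticulum, and tapasin (TAPBP) holds an empty heavy chain with B2M at the transporter until a stable peptide is bound. HLA-B and HLA-C are classical heavy chains, while HLA-E mainly shows leader peptides of other class I chains to receptors of NK cells. NLRC5 switches on class I genes together with factors bound at their promoters, and interferon acts on the same genes through STAT and IRF proteins.

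Before the class I genes were read, the target and the line were checked. LDB1 was 135 and 120.1 FPKM in sh-NC replicates 1 and 2 and 10.2 and 9.47 FPKM in sh-LDB1 replicates 1 and 2, in the direction of the labels. FPKM counts fragments relative to gene length and to a scaled sequencing depth. Levels of different genes can be compared on it only as far as the gene lengths used are right. NB4 is known as a promyelocytic line. Of its 10 granulocytic markers, 8 were analysed here, with MPO and CTSG not among them. ELANE, the neutrophil elastase gene of promyelocytes, had 0 reads in 3 of the 4 libraries and 0.182 FPKM (3 reads) in sh-LDB1 replicate 1. The summed level of the 8 genes was 13.1 and 11.7 FPKM in sh-NC and 41.4 and 37.9 FPKM in sh-LDB1. By contrast, the 14 erythroid markers summed to 4287 and 4479 FPKM in sh-NC and to 450.01 and 413 FPKM in sh-LDB1, and none of them was at 0. The embryonic globin gene HBZ alone reached 1543 and 1600 FPKM in sh-NC. These markers go against the promyelocytic label, so the cells are called the cells labelled NB4 here. Of the 13 erythroid markers tested, all 13 fell in sh-LDB1 (median log2 fold change -3.20), with HEMGN (-6.16), HBZ (-4.69) and GYPB (-3.85) as the named examples. Of 6 granulocytic markers tested, 4 rose, among them CSF3R (2.25) and LYZ (1.59). CEBPE (-0.58, adjusted p = 0.081) and CD33 (0.32, adjusted p = 0.104) did not pass the test. MS4A3, too low to be tested, had 16 and 3 reads in sh-NC and 0 in both sh-LDB1 libraries. Over all genes tested, 29.9% were higher and 37.4% lower. None of the 3 monocytic markers analysed reached 1 FPKM in any library. Of 3 lymphoid markers tested, 2 rose, the CD3 subunit CD3D (0.98) and the granule protein NKG7 (1.47, outside the naming rule), which passed the filter on low values only through the sh-LDB1 libraries. Every class I difference below was measured between groups that also differed in these markers, and the part of the markers in it was not tested. In bulk RNA, fewer cells of a type and less RNA per cell cannot be told apart.

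After LDB1 knockdown, 4 of the 9 class I members were called higher. HLA-E rose 3.98-fold, TAPBP 2.29-fold, TAP1 2.15-fold and B2M 1.83-fold as ratios of the group means in FPKM, while TAP2 did not pass the test. Of the 9 members, 5 averaged 1 FPKM or more over the 4 libraries and were tested, and these 5 were above 1 FPKM in every library. 4 of the 5 were higher and 0 were lower at an adjusted p below 0.05 (limma on log2(FPKM + 1), Benjamini-Hochberg over 13300 genes). Changes were frequent among all genes: 67.4% of the 13300 genes passed this test, made up of 29.9% higher and 37.4% lower. Libraries of the groups were fully separated for 4 of the 5 members and for 84.6% of all genes tested. HLA-E and TAPBP were the 2 members whose fold on the log scale also exceeded 2, as it did for 9.5% of all genes upward and, below 0.5, for 10.3% downward. The median log2 fold change was 0.86 over the 5 members and -0.08 over all genes tested. When each library was scaled to the same FPKM sum, the median over all genes moved up by 0.139 on the log2 scale. The split of all genes then turned from 3983 higher and 4978 lower to 4876 higher and 4047 lower, and the members remained at 4 higher and 0 lower.

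**Figure D1:**
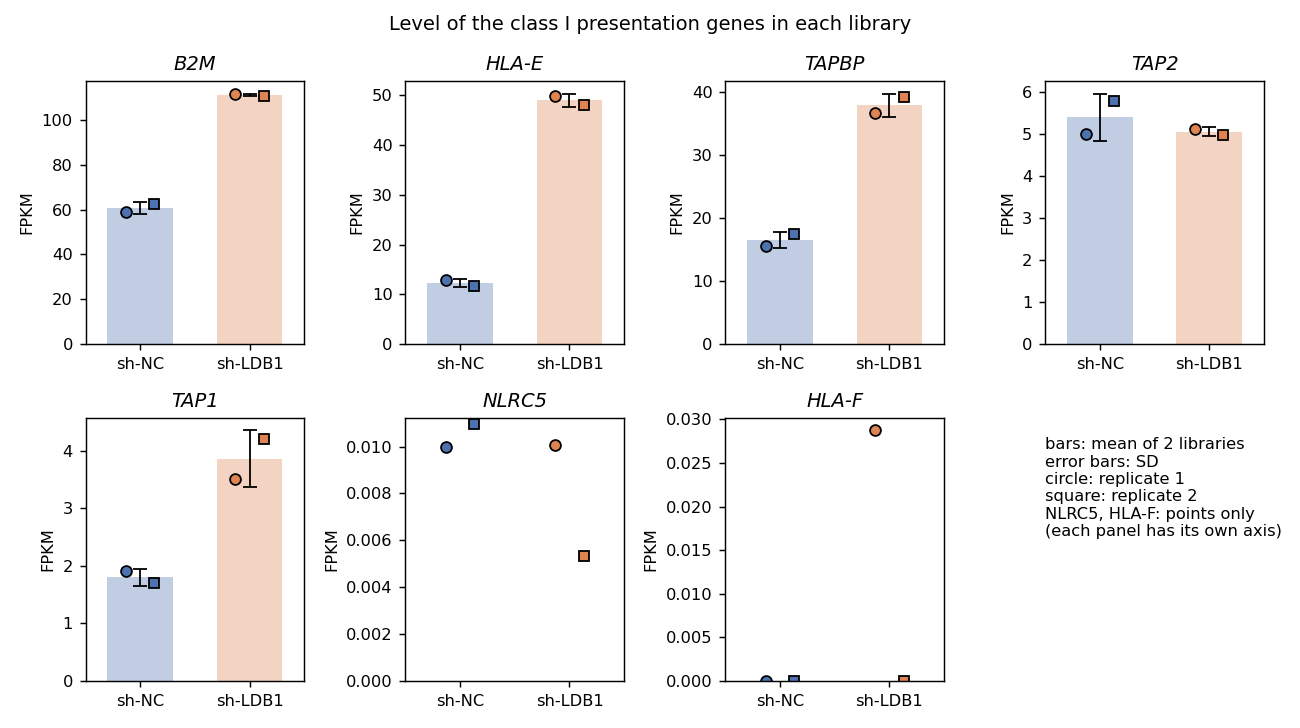
Level of the 7 class I genes in each library in FPKM, one panel per gene with its own axis from 0. Points are libraries, bars are means of the 2 libraries of a group and error bars are the SD, and NLRC5 and HLA-F are drawn as points only. Both sh-LDB1 libraries lie above both sh-NC libraries for B2M, HLA-E, TAPBP and TAP1, and the groups overlap for TAP2, NLRC5 and HLA-F.

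The promoters of 4 tested members are shown because each carries a match to a motif typical of interferon-response elements. Of these genes, 3 rose while TAP2 did not pass the test. HLA-F, which was not tested, also held a match and is not shown. A RefSeq entry was matched for 7 of the 9 members. No entry was matched for HLA-E and NLRC5. Each sequence is the 250 bases before the RefSeq start on GRCh38.p14, written 5′ to 3′ on the strand of the gene, and capitals mark matches to GAAA, any 2 bases and GAAA again, searched on both strands, with overlapping matches joined. Among 35116 RefSeq promoters of this length, 3.02% held this motif. B2M lies on chromosome 15 and the others lie in the MHC on chromosome 6.
B2M, chr15:44711267-44711516, plus strand: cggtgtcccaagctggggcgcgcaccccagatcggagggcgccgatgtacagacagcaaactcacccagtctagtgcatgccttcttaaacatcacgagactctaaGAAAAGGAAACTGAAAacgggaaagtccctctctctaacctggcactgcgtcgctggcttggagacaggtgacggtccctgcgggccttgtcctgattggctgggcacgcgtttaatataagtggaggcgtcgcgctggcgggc
TAP1, chr6:32853705-32853954, minus strand: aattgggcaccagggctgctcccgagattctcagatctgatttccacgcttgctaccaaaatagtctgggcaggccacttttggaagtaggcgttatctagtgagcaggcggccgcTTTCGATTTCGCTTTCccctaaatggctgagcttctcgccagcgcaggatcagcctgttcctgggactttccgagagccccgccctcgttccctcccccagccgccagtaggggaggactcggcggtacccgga
TAPBP, chr6:33314079-33314328, minus strand: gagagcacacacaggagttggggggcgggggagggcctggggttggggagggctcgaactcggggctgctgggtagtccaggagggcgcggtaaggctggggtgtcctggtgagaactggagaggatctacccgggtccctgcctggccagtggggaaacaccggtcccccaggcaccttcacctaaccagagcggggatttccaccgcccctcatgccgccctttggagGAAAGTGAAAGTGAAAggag
TAP2, chr6:32838740-32838989, minus strand: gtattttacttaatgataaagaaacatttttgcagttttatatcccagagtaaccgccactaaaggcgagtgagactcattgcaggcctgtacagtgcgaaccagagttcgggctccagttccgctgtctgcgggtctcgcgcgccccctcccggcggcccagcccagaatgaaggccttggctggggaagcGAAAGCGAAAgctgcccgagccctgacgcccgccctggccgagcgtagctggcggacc
B2M, TAP1 and TAPBP each held 2 overlapping matches and TAP2 held 1. A second RefSeq start of TAP1 (chr6:32852762-32853011) had 0 matches, the HLA-F promoter (chr6:29723184-29723433) had 1, and the HLA-B and HLA-C promoters had 0 each. A match was thus present in 3 of the genes that rose, in TAP2, which did not pass the test, and in HLA-F, which had hardly any reads. A match is a stretch of letters and not a shown binding site.

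Among heavy chains, HLA-E (ENSG00000204592, plus strand, chr6:30489509-30494194) was the member with the highest log2 fold change. Its level was 12.9 and 11.8 FPKM in sh-NC replicates 1 and 2 and 49.98 and 48.0 FPKM in sh-LDB1 replicates 1 and 2. Both sh-LDB1 libraries were far above both sh-NC libraries. HLA-E averaged 12.3 ± 0.759 in the control group and 49.0 ± 1.38 FPKM after knockdown (SD, n = 2 per group), and the log2 fold change was 1.91 (SE 0.0592, 95% interval 1.75 to 2.07, adjusted p = 9.6e-05). In reads, recovered as whole numbers from the FPKM values, HLA-E had 619, 517, 2382 and 2162 in the same order. Its level exceeded that of 86.1% and 85.1% of the table's genes in sh-NC and of 97.2% and 97.1% in sh-LDB1.

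HLA-F (ENSG00000204642, plus strand, chr6:29722775-29738528), a non-classical heavy chain, was close to absent from the reads. Its count was 0 reads in both sh-NC libraries and in sh-LDB1 replicate 2, and 1 read (0.0288 FPKM) in sh-LDB1 replicate 1. A count of 0 allows up to 3 reads, which is 0.0854 and 0.0937 FPKM for HLA-F in the sh-NC libraries and 0.0913 FPKM in sh-LDB1 replicate 2. A fold change is therefore not given, and no difference was detectable at this depth. K562, an erythroleukemia line that the study also used, is known for carrying hardly any class I molecule on its surface. Whether the few HLA-F reads bear on the identity of the line was not tested.

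**Figure D2:**
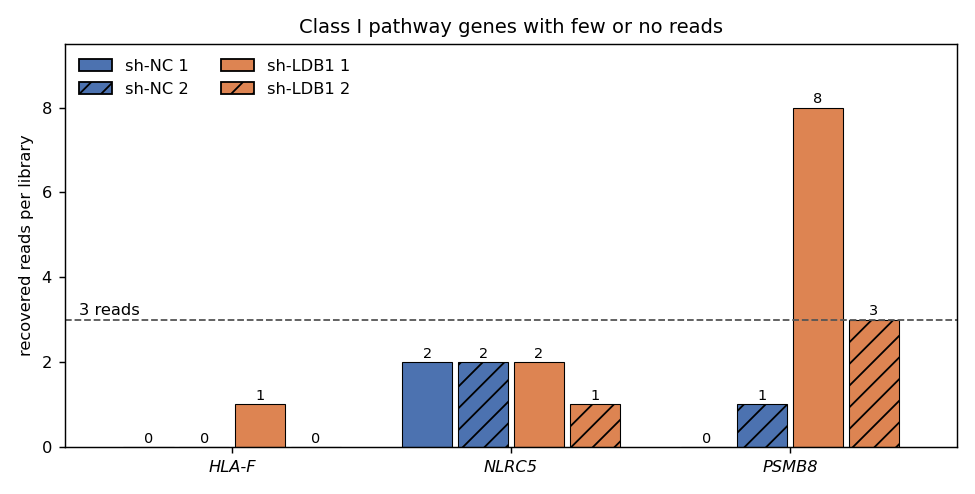
Recovered reads per library for the class I pathway genes HLA-F, NLRC5 and PSMB8, with the number of reads above each bar. The dashed line marks 3 reads, and of these genes only PSMB8 reaches it, in both sh-LDB1 libraries.

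Of 6 further class I and class I-like heavy chain genes listed, 4 were analysed and 2 were tested. HFE, whose product pairs with B2M and limits iron uptake, was 0.653 and 0.406 FPKM in sh-NC and 3.07 and 2.81 FPKM in sh-LDB1 (log2 fold change 1.37, SE 0.139, adjusted p = 0.00127). HFE passed the filter on low values only through the sh-LDB1 libraries, so a difference had to follow. MR1, which shows vitamin B metabolites to T cells, was 2.06 and 2.48 FPKM in sh-NC and 3.18 and 2.87 FPKM in sh-LDB1. The MR1 groups did not overlap, but the change of 0.30 did not pass the test (adjusted p = 0.0621), which it did with equal FPKM sums. CD1D and FCGRT stayed below 1 FPKM in every library.

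16 rows carried a name that begins with HLA-, of which 10 were pseudogenes and 10 stayed under 1 FPKM in every library. The rows of this kind are described after their values were seen. The class I pseudogene HLA-K was 0.591 and 0.713 FPKM in sh-NC and 3.94 and 4.04 FPKM in sh-LDB1, and rose by 1.60 on the log2 scale. HLA-K also passed the filter only through sh-LDB1. The pseudogene HLA-H had 0 reads in both sh-NC libraries against 19 and 23 reads in sh-LDB1, at least 13.9-fold higher than 3 reads over the sh-NC group allow. HLA-J moved in the other direction, from 55 and 41 reads in sh-NC to 21 and 20 reads in sh-LDB1, and fell by 0.62 on the log2 scale, having passed the filter only through sh-NC. These copies resemble the functional heavy chains closely, so reads may have been split between them, and their values are uncertain. HLA-F also has an antisense partner, HLA-F-AS1, with 5, 3, 5 and 9 reads in the 4 libraries, and the use of strand in counting is not given in the sources used here.

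The light chain B2M (ENSG00000166710, plus strand, chr15:44711358-44718851) was the most abundant member in every library. It measured 59.0 and 62.7 FPKM in sh-NC and 112 and 111 FPKM in sh-LDB1. The sh-LDB1 libraries were almost equal, and both lay above the sh-NC libraries. B2M averaged 60.9 ± 2.63 in the control group and 111 ± 0.511 FPKM after knockdown (SD, n = 2 per group), and the log2 fold change was 0.86 (SE 0.0471, 95% interval 0.73 to 0.99, adjusted p = 0.000239). The recovered reads of B2M were 5803, 5622, 10868 and 10198. In relation to HLA-E, B2M went from a ratio of 4.59 and 5.32 in sh-NC to 2.23 and 2.31 in sh-LDB1. With 2 libraries a group, the exact two-sided permutation test on this ratio gave p = 0.333, the smallest p it allows.

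The 3 genes whose pattern over the 4 libraries was most like that of B2M, among 4838 genes averaging 10 FPKM or more, were MYADM, SCD and NFE4. Their centred log2 values differed from those of B2M by a root mean square of 0.0103, 0.0104 and 0.0114. MYADM was 13.3 and 14.4 FPKM in sh-NC and 25.7 and 25.5 FPKM in sh-LDB1. SCD, the stearoyl-CoA desaturase, was 313 and 332 FPKM in sh-NC and 582 and 573 FPKM in sh-LDB1.

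The transporter subunits differed from each other. TAP1 (ENSG00000168394, minus strand, chr6:32845209-32853816) was 1.90 and 1.69 FPKM in sh-NC and 3.51 and 4.21 FPKM in sh-LDB1. Its sh-LDB1 libraries were both higher than its sh-NC libraries. The log2 fold change of TAP1 was 0.79 (SE 0.111, 95% interval 0.50 to 1.09, adjusted p = 0.00346) on the log2(FPKM + 1) scale, which understates the change of low genes. On the recovered reads (148, 120, 270 and 306), limma with voom, an analysis chosen after seeing the data, gave 1.20 for TAP1, with another scaling as well as no such pseudocount. A pseudocount of 0.1 or 0.01 alone gave 1.06 and 1.09. TAP1 overlaps the genes PSMB9 and PSMB8-AS1 on the opposite strand, so reads there cannot be assigned without strand.

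TAP2 (ENSG00000204267, minus strand, chr6:32821833-32838739) was 4.99 and 5.79 FPKM in sh-NC and 5.13 and 4.97 FPKM in sh-LDB1. The groups overlapped. The log2 fold change was -0.08 with a 95% interval of -0.30 to 0.15 (SE 0.0846, adjusted p = 0.464). The sign of this value turned to 0.07 with equal FPKM sums, to 0.03 on the recovered reads and to 0.01 without sh-NC replicate 2, so no direction is given for TAP2. TAP2 overlaps a readthrough gene on its own strand, which can take part of its reads. The ratio of TAP2 to TAP1 went from 2.62 and 3.42 in sh-NC to 1.46 and 1.18 in sh-LDB1. The size of this ratio rests on the gene lengths used, unlike its relative change between groups.

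TAPBP (ENSG00000231925, minus strand, chr6:33299694-33314284), the gene for tapasin, was 15.6 and 17.4 FPKM in sh-NC and 36.6 and 39.2 FPKM in sh-LDB1. No sh-NC library came near the sh-LDB1 libraries. TAPBP averaged 16.5 ± 1.31 in the control group and 37.9 ± 1.83 FPKM after knockdown (SD, n = 2 per group), and the log2 fold change was 1.15 (SE 0.0728, 95% interval 0.96 to 1.35, adjusted p = 0.000341). TAPBP had 1276, 1301, 2965 and 2998 recovered reads. In deposited FPKM its level stood above that of HLA-E in both sh-NC libraries and below it in both sh-LDB1 libraries, with ratios of HLA-E to TAPBP of 0.824 and 0.675 against 1.37 and 1.23.

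NLRC5 (ENSG00000140853, plus strand, chr16:56989485-57083531), the class I transactivator, was at the limit of detection in every library. It had 2 and 2 reads in sh-NC and 2 and 1 reads in sh-LDB1, or 0.00998, 0.0109, 0.0101 and 0.00534 FPKM. A level of 3 reads corresponds to 0.015 to 0.0164 FPKM for this long gene, so all 4 values lie under that floor and no fold is given.

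Ordered by deposited FPKM, the sh-NC libraries had B2M above TAPBP, HLA-E, TAP2 and TAP1, and the sh-LDB1 libraries had B2M above HLA-E, TAPBP, TAP2 and TAP1. The ranges of neighbouring genes in this order did not overlap within a group. NLRC5 and HLA-F stood last in both groups, with NLRC5 above HLA-F in sh-NC and overlapping ranges in sh-LDB1, all at 2 reads or fewer. The order rests on the gene lengths behind the deposited FPKM, and the lengths that give whole reads differ from the annotation for B2M (6079 against 3121 bases), TAPBP (5056 against 6648) and TAP2 (6390 against 10357). With the annotated lengths, TAPBP (11.9 and 13.3 FPKM) and HLA-E (13.1 and 12.0 FPKM) overlapped in sh-NC, and TAP1 (3.56 and 4.27 FPKM) stood above TAP2 (3.16 and 3.07 FPKM) in sh-LDB1, while changes between groups within a gene are not touched by its length.

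The rest of the class I pathway did not move in 1 direction. Of 64 further genes for heavy chains, loading, proteasome, regulation, interferon input and turnover, 61 were analysed and 54 were tested. 22 of the 54 were higher and 24 were lower (29.9% and 37.4% over all genes), and their median log2 fold change was 0.10 against -0.08 over all genes. The groups were separated for 53 of the 54 (84.6% over all genes).

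**Figure D3:**
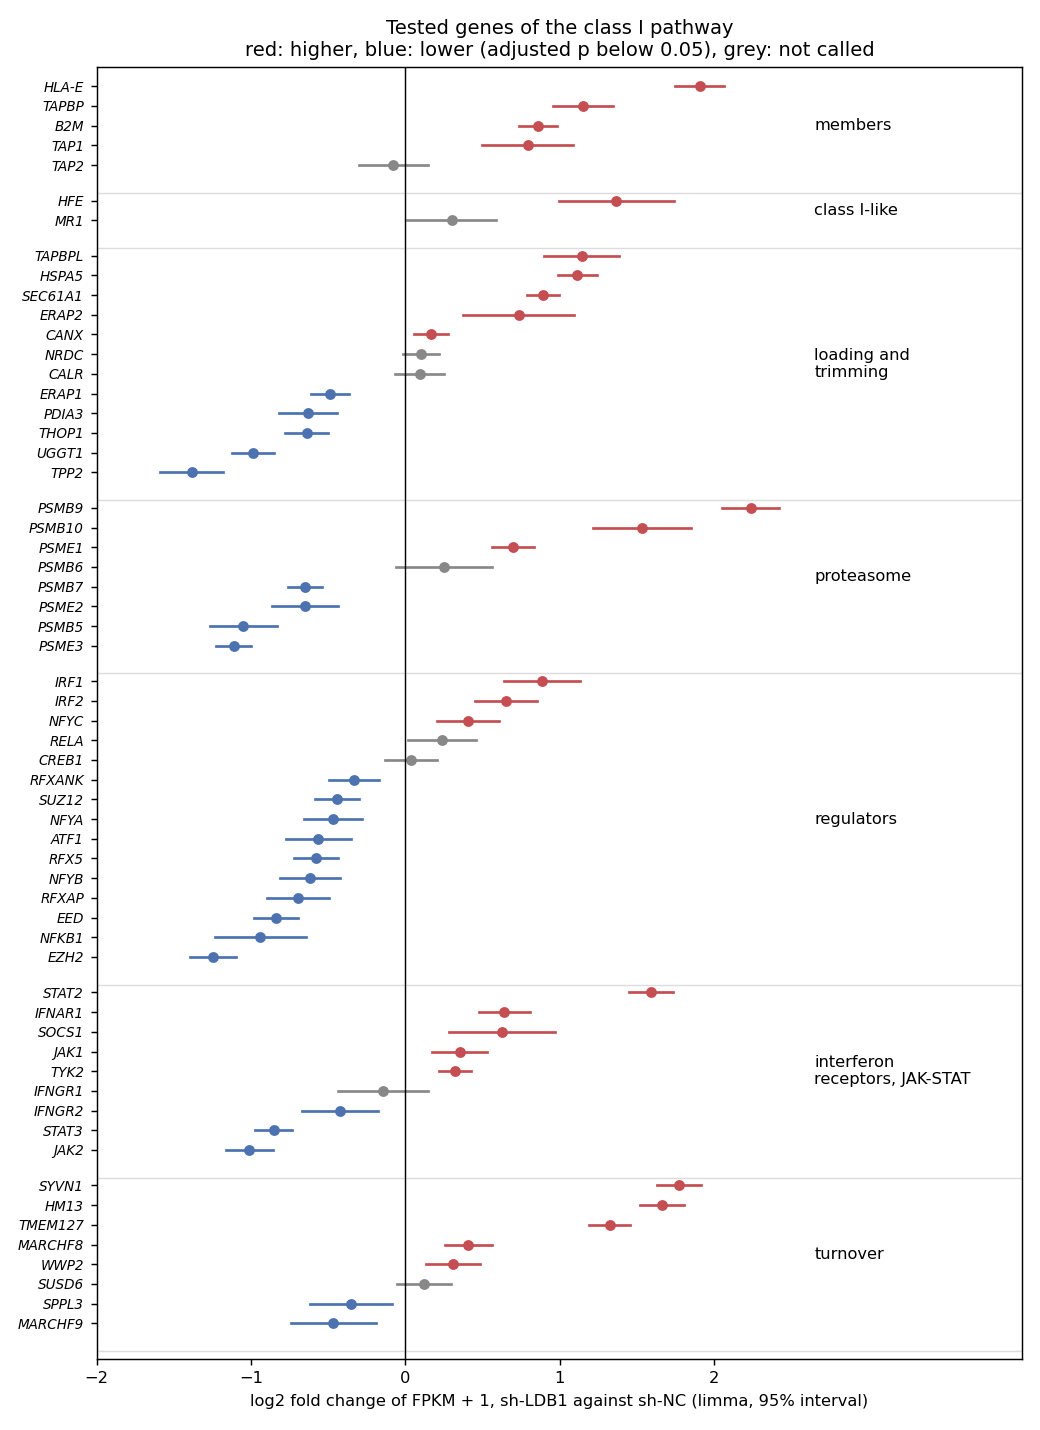
Log2 fold change of FPKM + 1 in sh-LDB1 against sh-NC for the 5 tested members and 54 further class I pathway genes, with 95% intervals from limma. Red points were higher, blue points lower and grey points not past an adjusted p of 0.05. HLA-E (1.91) lies highest among the members, and all lists of further genes except the class I-like chains hold points on both sides of 0.

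Loading and trimming genes went both ways, with 5 higher, 5 lower and 2 not past the test of 12 tested (median log2 fold change 0.10). The share over all genes was 29.9% higher and 37.4% lower. HSPA5, the ER chaperone also known as BiP, was 183 and 193 FPKM in sh-NC and 402 and 414 FPKM in sh-LDB1 (1.12, adjusted p = 0.000152). TPP2, a cytosolic peptidase that trims long peptides, fell by 1.38 on the log2 scale, from 15.6 and 17.4 FPKM to 5.92 and 5.45 FPKM. UGGT1, the folding sensor that returns glycoproteins to calreticulin, fell by 0.99. Among partners of tapasin in the loading complex, the chaperone gene CALR had a log2 fold change of 0.09 (adjusted p = 0.22; called higher with equal FPKM sums), while PDIA3, the disulfide isomerase bound to tapasin, fell by 0.63. TAPBPL, which encodes the tapasin-like peptide editor TAPBPR, rose by 1.14, from 1.74 and 1.49 FPKM to 4.89 and 4.66 FPKM. Of the ER aminopeptidases that trim the N-terminus of peptides, ERAP1 fell by 0.49 and ERAP2 rose by 0.73. ERAP2 passed the filter only through sh-LDB1 (0.724, 0.603, 1.67 and 1.86 FPKM). CALR, PDIA3, TAPBPL, ERAP1 and ERAP2 were named after their values were seen.

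Of 8 proteasome genes tested, 3 rose and 4 fell, with a median log2 fold change of -0.20. Over all genes, 29.9% were higher and 37.4% lower. Immunoproteasomes carry the catalytic subunits PSMB8, PSMB9 and PSMB10 in place of the constitutive PSMB5, PSMB6 and PSMB7. PSMB10 was 3.20 and 3.77 FPKM in sh-NC and 10.9 and 13.2 FPKM in sh-LDB1 (1.54, SE 0.119, adjusted p = 0.000572). PSMB9, named after its values were seen, was 1.09 and 1.04 FPKM in sh-NC and 8.66 and 8.82 FPKM in sh-LDB1 (2.24, SE 0.0693). Both subunits were higher in each sh-LDB1 library than in any sh-NC library. PSMB8, likewise outside the naming rule, had 0 and 1 reads in sh-NC against 8 and 3 reads in sh-LDB1, a ratio of summed reads of 10.9 with a counting interval of 1.59 to 470.1.

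PSMB5 fell by 1.05 on the log2 scale, from 96.3 and 82.9 FPKM to 43.1 and 42.3 FPKM, PSMB7 fell by 0.65, and PSMB6 had a value of 0.25 (adjusted p = 0.118), although it was called higher with equal FPKM sums. Ratios within a library showed the same contrast without a between-library scaling. PSMB6 over PSMB9 went from 61.0 and 50.7 in sh-NC to 8.21 and 7.94 in sh-LDB1, and PSMB7 over PSMB10 from 37.7 and 31.0 in sh-NC to 7.02 and 5.65 in sh-LDB1. In deposited FPKM the constitutive subunit was the higher of each pair in all 4 libraries. Each ratio had an exact permutation p of 0.333, the smallest possible with 2 libraries a group. Of the activator subunits that open the proteasome, PSME1 rose by 0.70 and PSME2 fell by 0.65, and the nuclear activator PSME3 fell by 1.11.

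In the annotation TAP1 lies within the span of PSMB9 on the opposite strand, so reads where they overlap cannot be told apart without strand. With this limit, PSMB9 over TAP1 went from 0.571 and 0.613 in sh-NC to 2.47 and 2.10 in sh-LDB1. The 250 bases before the RefSeq start of PSMB9 (chr6:32853942-32854191, plus strand) held 0 matches to the same motif. The TAP1 window with 2 matches (chr6:32853705-32853954, minus strand) overlaps the upstream end of this window, and its matches lie outside the overlap.

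**Figure D4:**
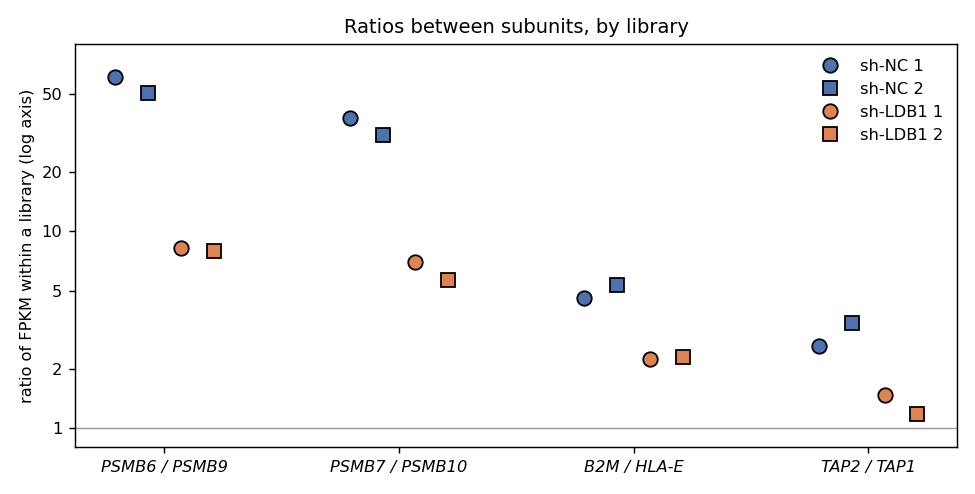
Ratio of FPKM between subunits within each library, on a log axis, for the pairs PSMB6 / PSMB9, PSMB7 / PSMB10, B2M / HLA-E and TAP2 / TAP1. Circles are replicate 1 and squares replicate 2; every ratio was lower in both sh-LDB1 libraries, and all stayed above 1.

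Of 15 regulators of class I genes tested, 3 rose and 10 fell, with a median log2 fold change of -0.47, beside 29.9% higher and 37.4% lower over all genes. With equal FPKM sums the count was 4 higher and 9 lower. EZH2, the catalytic subunit of Polycomb repressive complex 2, was 42.2 and 45.1 FPKM in sh-NC and 17.4 and 18.2 FPKM in sh-LDB1, a fall by 1.25 on the log2 scale (adjusted p = 0.000158). Its partner EED fell by 0.84. The list mixes such subunits of a repressive complex with activators, so its count gives no direction of class I regulation. In the same list IRF2, an interferon regulatory factor, rose by 0.65. IRF1, an activator of class I promoters that was named after its values were seen, rose by 0.89, from 1.57 and 1.77 FPKM to 3.76 and 4.10 FPKM. NFKB1 (-0.94) and the DNA-binding RFX subunits RFX5 (-0.58) and RFXAP (-0.70), also outside the naming rule, fell. The class II transactivator CIITA was at most 0.0719 FPKM in any library.

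Interferon receptors and their JAK-STAT members showed 5 higher and 3 lower of 9 tested, beside 29.9% higher and 37.4% lower over all genes. STAT2, which carries type I interferon signals, was 9.41 and 10.1 FPKM in sh-NC and 31.7 and 31.1 FPKM in sh-LDB1 (1.59, adjusted p = 0.000108). JAK2 fell by 1.01 and STAT3 by 0.85. With equal FPKM sums the pathway genes as a whole counted 28 higher and 21 lower, so small changes are read relative to the shift of 0.139.

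Genes that remove class I chains or quality-control them counted 5 higher and 2 lower of 8 tested. The share over all genes was 29.9% higher and 37.4% lower. SYVN1, a ubiquitin ligase of ER-associated degradation, was 14.1 and 15.2 FPKM in sh-NC and 52.0 and 52.7 FPKM in sh-LDB1 (1.77, adjusted p = 9.12e-05). HM13, the signal peptide peptidase that releases the leader peptides shown by HLA-E, rose by 1.66, from 8.0 and 7.62 FPKM to 26.2 and 27.6 FPKM. TMEM127 rose by 1.33, from 5.95 and 6.12 FPKM to 16.8 and 16.5 FPKM.

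The class II genes analysed had low levels. Of 11 listed, 3 were analysed and 1 was tested, HLA-DOB, which inhibits class II peptide exchange. HLA-DOB was 1.78 and 1.52 FPKM in sh-NC and 0.558 and 0.492 FPKM in sh-LDB1 and fell by 0.79, having passed the filter only through sh-NC. HLA-DMA and the invariant chain CD74 stayed under 1 FPKM in all libraries. Among ligands of NK cell receptors, 4 rose and 2 fell of 6 tested, beside 29.9% higher and 37.4% lower over all genes. ICAM1, the adhesion molecule for LFA-1, went from 9.07 and 9.31 FPKM to 35.7 and 35.3 FPKM (1.84), MICB, a stress ligand of NKG2D, rose by 1.23, and NECTIN2, a ligand of DNAM-1, rose by 0.76.

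**Figure D5:**
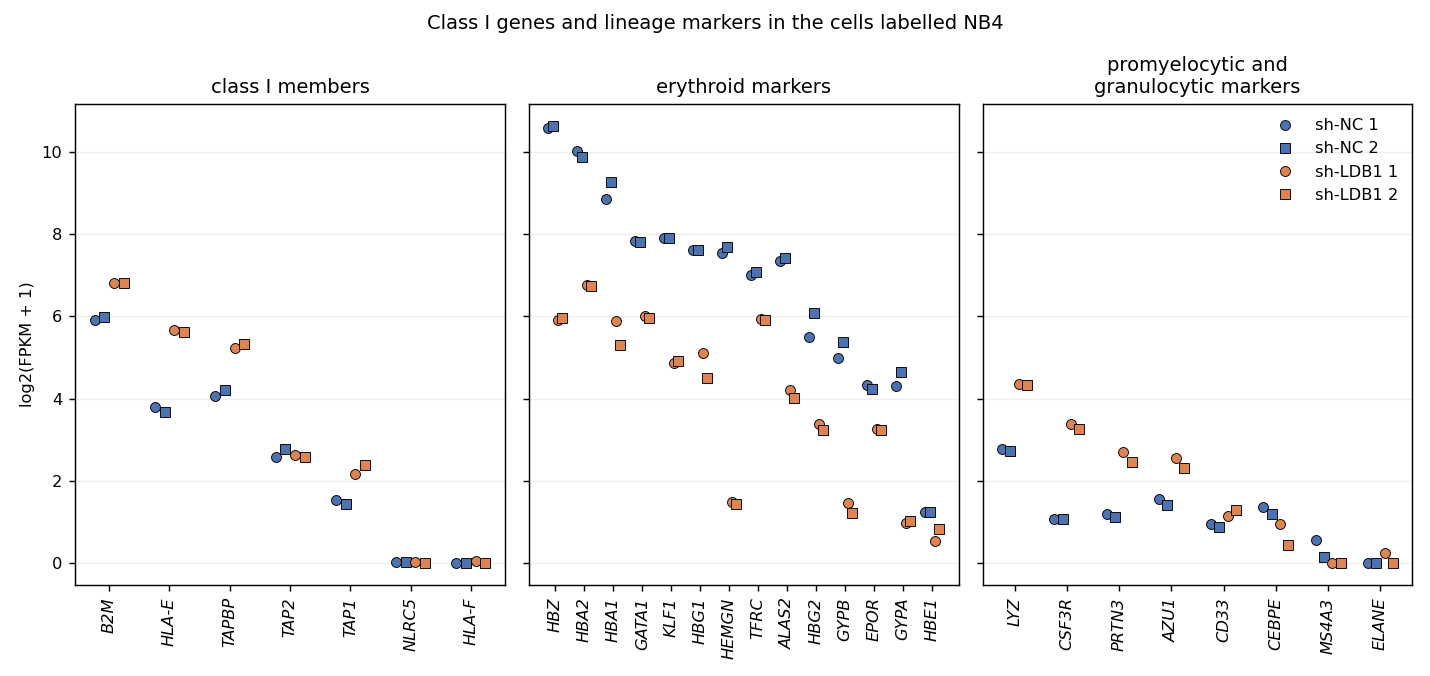
Levels as log2(FPKM + 1) of the class I genes, 14 erythroid markers and 8 promyelocytic and granulocytic markers in each library. In sh-NC, HBZ (1543 and 1600 FPKM) lies far above B2M (59.0 and 62.7 FPKM), and ELANE is at or near 0 in every library.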

How the data were processed

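Total RNA was extracted with Trizol, and libraries were prepared with a TruSeq kit. After filtering, the authors mapped clean reads with HISAT, and they deposited 1 table of FPKM, with 1 value per gene and library. The submitters' processing notes name HISAT2 2.0.5 and hg38. The counting tool, the annotation and the use of strand are not given in the sources used here. The authors called changed genes with DESeq2, which was not used here.

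Whole reads were recovered from the FPKM values with exon lengths of GENCODE release 44 where these gave whole reads, and otherwise with the shortest length that did. For 81.5% of genes it came within 10% of the annotation. For 99.2% of genes all 4 values came out whole, within 0.0002 reads. The totals were 16381977 and 15004499 reads in sh-NC and 15092515 and 14173456 reads in sh-LDB1. A length may be off by a whole factor, and counting intervals cover counting error only. The deposited FPKM already had equal median ratios (1.0083) in the 4 libraries.

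Genes that averaged 1 FPKM or more were tested on log2(FPKM + 1) with limma 3.58.1 in R 4.3.3 (eBayes with a trend), 2 sh-LDB1 against 2 sh-NC libraries, with Benjamini-Hochberg adjustment over 13300 genes and a threshold of 0.05. Intervals are at 95%. Ratios between genes were compared with exact permutation tests in scipy 1.17.1. The scripts were tested on simulated data. Promoters came from RefSeq (GRCh38.p14), and gene coordinates from GENCODE 44 on GRCh38. Members and gene lists were chosen with earlier results of these data known. Some pathway genes are not reported here. Named by rule were all members, LDB1, class I-like genes above 1 FPKM, the 3 genes of each list with the largest absolute log2 fold change among those past the threshold averaging 5 FPKM or more, markers needed to check the label, and the 3 genes most like B2M. Alternatives were other pseudocounts, filters, scaling, a replicate block, no trend, a fold threshold and leaving out each library. The voom fit on the recovered reads was added after seeing the data.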

Additional observations from a re-analysis of the deposited data

How the results depend on the processing

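The 5 tested members and LDB1 kept their side of the adjusted p threshold under every alternative that gave them a value. Only TAP2, which was never called, changed sign. Over these alternatives the log2 fold change ran from 1.85 to 2.10 for HLA-E, from 1.08 to 1.32 for TAPBP, from 0.82 to 1.03 for B2M, from 0.69 to 1.20 for TAP1, from -0.17 to 0.07 for TAP2 and from -3.69 to -3.40 for LDB1. Adding a fold change above 2 to the threshold left 2 members higher, 1264 genes higher and 1371 genes lower. B2M (0.86) and TAP1 (0.79) lost their call by this rule. HLA-F had 0.182 with a pseudocount of 0.1, 0.977 with 0.01 and 0 to 0.0409 without 1 library in turn, and NLRC5 had -0.0368 with 0.1 and -0.221 with 0.01. Both genes had at most 2 reads in any library, which limits what their values can show. They gave no value under the filter of 1 FPKM in every library, the block, the fit without a trend or voom. Leaving out 1 library at a time gave 3140 to 3697 genes higher and 4067 to 4561 lower, and the members stayed at 4 higher and 0 lower. An arm with 1 library left was assumed to vary like the other. The labels tell the replicates apart only by a number. Deviations of the same-numbered libraries correlated at 0.0196 over 13300 genes, and this 1 value cannot show whether they shared a culture or batch. With the replicate block, 4 members were higher and 0 lower, 3890 genes were higher and 4808 lower, and no call of a member changed.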
